A study of Drosophila melanogaster with 5 samples.

Results

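Tetraspanins are small proteins that cross the membrane several times and carry a large outer loop with conserved cysteines. They gather partner proteins such as integrins and membrane proteases into microdomains of the cell surface and of endosomes and lysosomes. In Drosophila many of them are encoded side by side at cytological position 42E, the Tsp42E cluster, and single members are known from the septate junctions of the gut (Tsp2A), from the control of the Notch protease kuzbanian (Tsp3A, Tsp26A and Tsp86D) and from the turnover of rhodopsin in photoreceptors (Tsp42Ej, also called sunglasses).

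The tetraspanins described here are the genes whose current symbol is Tsp followed by a cytological position, which gives 34 genes with 68 transcripts of the 16987 genes and 34111 transcripts in the counts. The Tsp42E cluster holds 17 of these genes with 25 transcripts, and the other 17 genes hold 43 transcripts. RNA-seq counts were available for 3 libraries of LB-flies, wild-type Oregon-R that developed in the underground low-background laboratory DULB-4900, and for 2 libraries of NB-flies of the same strain from the ground laboratory. Each library held 25 whole males kept at 24 °C in the dark, aged 2 to 3 days by the study's methods and 3 days by the sample labels. The groups differ by laboratory, so that the radiation background cannot be told apart from any other difference between the places. Whole males were homogenized, so that fewer cells of a type and less RNA per cell cannot be told apart.

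The counted reads of a library numbered 23027411 to 26036113, and tetraspanins took 0.12% to 0.158% of them. The libraries of a group differed by more than sampling noise in the whole table. The lists of tissue markers shifted between the groups in part. All 11 testis transcripts were higher in LB-flies, 4 of them with an unadjusted p under 0.05 in the quasi-likelihood test of edgeR, and 12 of 13 midgut transcripts were lower, also with 4 under 0.05. Of all tested transcripts, 3.91% were higher and 3.66% lower at that limit. All 9 accessory gland transcripts had a higher fold change, with 0 under 0.05, but LB replicate 1 was the lowest library for each of them. Their summed CPM was 4318 and 4163 for NB-flies against 2245, 6087 and 7164 for LB-flies. All 5 hemocyte transcripts were lower, with 1 under 0.05. The summed CPM of the testis list was 4616 and 4030 for NB-flies against 5279, 5510 and 5287 for LB-flies. The female list was low in every library, with Yp1 and Yp3 below the count minimum, but all 5 tested transcripts were higher in LB-flies, 2 of them with an unadjusted p under 0.05, and their median log2 fold change was 1.27. Their summed CPM was 5.68 and 6.45 for NB-flies against 10.4, 8.36 and 8.14 for LB-flies, without overlap. The part of these tissues in the tetraspanin values was not tested.

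Which tetraspanins could be measured at all depended first on their transcript structure. Reads were counted for each transcript, and a read that could not be assigned to a single transcript was set apart as ambiguous and entered no count. Such reads made up 53.9% to 56.5% of the records of a library. Of the 13 tetraspanin genes with a single transcript, 12 had at least 10 counts summed over the libraries, the exception being Tsp42Eb with 0 counts. The 21 genes with several transcripts listed 55 of them, of which 32 had 0 counts in all libraries. In the Ensembl annotation of the same genome build, 33 of the 55 transcripts of these genes have no base of their own. For 20 of the 21 genes the number of transcripts at 0 counts was the number without an own base.

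Tsp26A, Tsp66A, Tsp86D and Tsp97E were 4 genes in which no transcript has an own base, and they had 1, 0, 0 and 0 counts in all libraries together. Among them are Tsp26A and Tsp86D, which with Tsp3A form the group that guides the maturation of kuzbanian. No level can be given for these genes, and a count of 0 here does not describe their expression. The longest own stretch of Tsp29Fb, Tsp42Ee and Tsp66E was 71, 82 and 43 bases, shorter than the 100-base reads, and these genes still had 1408, 3040 and 137 counts. Of the 14 genes with an own stretch of at least 100 bases, 13 had a transcript of at least 10 counts. The exception was Tsp68C, which had 1 count although 167 bases belong to a single transcript. Values of genes with several transcripts therefore describe a fragment of the gene.

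**Figure D1:**
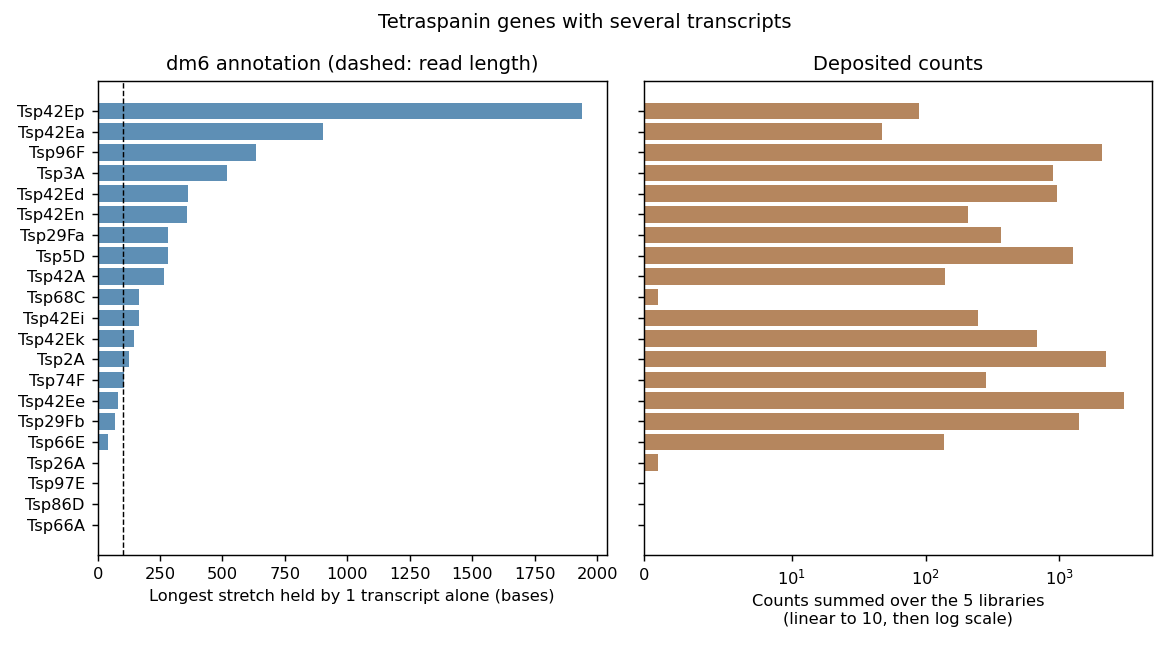
The left panel shows, for the 21 tetraspanin genes with several transcripts, the longest stretch in bases that belongs to a single transcript, and the right panel the counts of the gene summed over the 5 libraries, linear up to 10 and on a log scale above. The 4 genes without an own stretch (bottom rows) had at most 1 count.

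A total of 31 transcripts of 28 genes had at least 10 counts and were tested, 17 transcripts of 16 genes from the cluster and 14 transcripts of 12 other genes. Tsp26A, Tsp42Eb, Tsp66A, Tsp68C, Tsp86D and Tsp97E were not tested. Tsp42Eo and Tsp42Ep lie on opposite strands, and all exon bases of Tsp42Eo are covered by exons of Tsp42Ep. Tsp42Eo had 804 counts all the same. Of 127 one-transcript genes that lie wholly under exons of the opposite strand, 94 had at least 10 counts. The libraries were made with a stranded kit, and the strand setting of the counting is not given in the sources used here. Tsp42Ej and Tsp42Ek share exon bases on the same strand, as do Tsp42Ea and CG30159. A read wholly within such shared bases cannot be assigned to a single gene.

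Levels could be compared between genes for the 12 tested genes with a single transcript, as CPM (counts scaled by the TMM-normalized library size) divided by the exon length in kilobases. Tsp42Ej, the lysosomal tetraspanin of photoreceptors, was the highest in every library. It reached 346 and 281 CPM per kb in NB-flies and 293, 253 and 252 CPM per kb in LB-flies. Tsp42Eg followed with a mean of 187 CPM per kb over the libraries and Tsp42Ef with 164 CPM per kb. These genes were not separated from each other, since their ranges overlapped and Tsp42Ef was above Tsp42Eg in LB replicate 3. Tsp42El was the fourth in every library, with a mean of 90.5 CPM per kb, below the range of Tsp42Ef.

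Tsp42Er, Tsp42Eh and Tsp42Ec came next with 74.1, 72.4 and 69.8 CPM per kb on average, and their ranges overlapped. Tsp42Ec ranked 7 in both NB libraries but 5, 6 and 6 in LB-flies. Tsp39D, Tsp42Eq and Tsp33B followed with 42.1, 37.4 and 36.8 CPM per kb and could not be ordered either. A wide gap separated them from Tsp42Eo and Tsp47F, with 7.29 and 5.56 CPM per kb and ranks 11 and 12 in every library. The 7 highest of the 12 genes thus all belonged to the cluster, but so did 9 of the 12 genes. Of the other tetraspanins only Tsp33B, Tsp39D and Tsp47F could be ranked, since 14 of them have several transcripts. The order therefore does not compare the cluster with the other tetraspanins. Tsp42Eo shows that the cluster also holds genes of a low level.

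**Figure D2:**
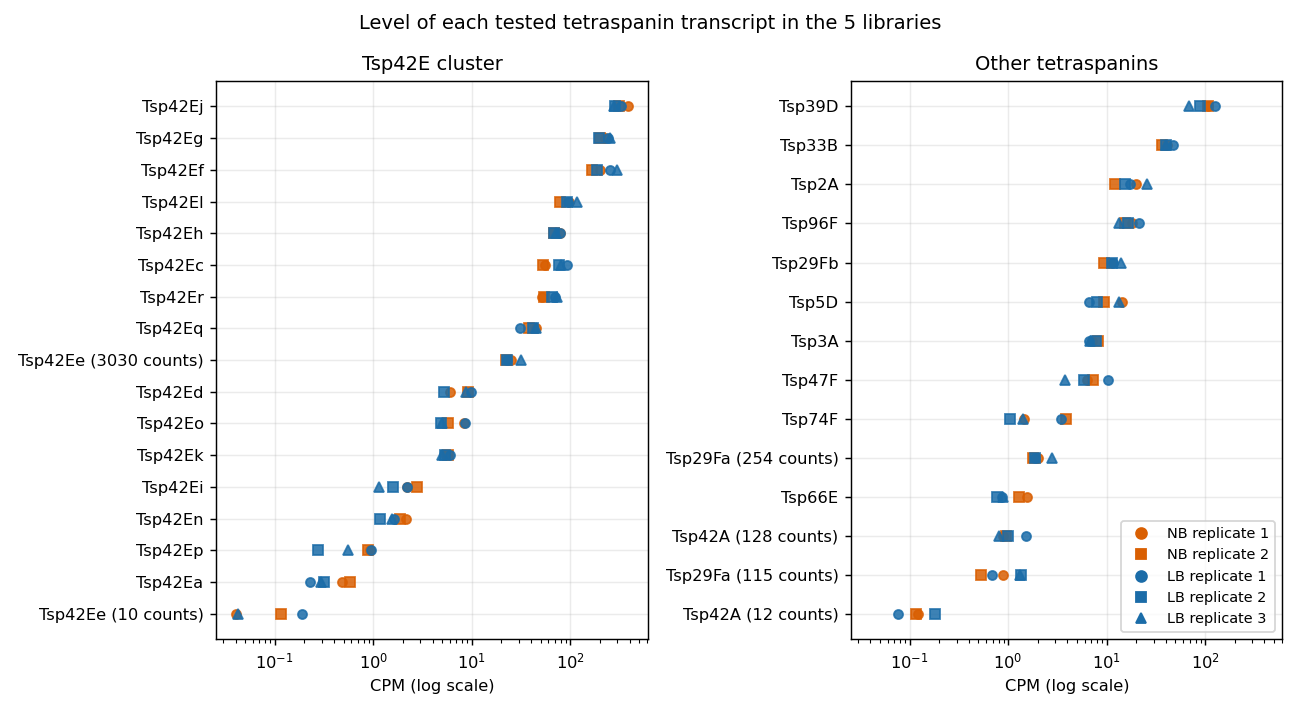
CPM on a log scale for the 17 tested transcripts of the Tsp42E cluster (left) and the 14 of the other tetraspanins (right), with 1 point for each library (orange, NB-flies, blue, LB-flies) and genes with several tested transcripts told apart by their summed counts. Libraries at 0, which are LB replicate 2 for the low transcript of Tsp42Ee and LB replicate 3 for the low transcript of Tsp42A, are not drawn, and for most transcripts the colours overlap.

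Between LB-flies and NB-flies the family as a whole was level, with 15 transcripts higher and 16 lower in LB-flies. The median log2 fold change of the 31 transcripts was −0.0017, beside −0.02 for all 17337 tested transcripts, of which 47.4% were higher. No tetraspanin passed an adjusted p of 0.05 in the quasi-likelihood test of edgeR with Benjamini-Hochberg adjustment, where the background is 0% of all transcripts, and the smallest adjusted p of a tetraspanin was 0.625. At an unadjusted p under 0.05 there were 3 of 31, namely Tsp42Ec and Tsp42Er, higher in LB-flies, and Tsp66E, lower. The background at that limit is 7.57% of all transcripts in either direction, 3.91% higher and 3.66% lower. DESeq2 gave Tsp42Ec an adjusted p under 0.05 and no other tetraspanin, beside 0.618% of 12293 transcripts in either direction, 0.252% higher and 0.366% lower. Every LB library lay above both NB libraries for 3 of the 31 transcripts and below both for 4. The same held for 14.8% and 13.1% of all tested transcripts.

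Tsp42Ec, a member of the cluster without a known function, lies on chromosome arm 2R at 7006442 to 7008622 (dm6) and has a single transcript. It reached 55.4 and 52.6 CPM in NB-flies and 92.4, 76.8 and 80.5 CPM in LB-flies. Every LB library was above both NB libraries, as for 14.8% of all tested transcripts. The same held for 1658 of 7974 tested genes with a single transcript and for 1446 of 6459 transcripts with a mean of at least 10 CPM. Of these 6459 transcripts, 461 were higher with an unadjusted p under 0.05 in edgeR. The means were 54.0 ± 2.00 (SD, n = 2) and 83.2 ± 8.17 CPM (SD, n = 3), which gave a log2 fold change of 0.62 ± 0.13 (SE) with a 95% interval of 0.30 to 0.95. The unadjusted p was 0.00298 and the adjusted p 0.625 in edgeR, while DESeq2 gave a log2 fold change of 0.63 with an adjusted p of 0.0391. This call was lost when any single library was left out, with adjusted p-values between 0.0943 and 1 in DESeq2, and the log2 fold change then stayed between 0.56 and 0.69.

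Tsp42Er, at the other end of the cluster (2R, 7064399 to 7066113), also has a single transcript. Its level was 51.3 and 53.6 CPM in NB-flies and 69.3, 65.9 and 74.1 CPM in LB-flies, again without overlap. The log2 fold change was 0.41 ± 0.12 (SE), with an unadjusted p of 0.0125 and an adjusted p of 0.625 in edgeR and an adjusted p of 0.343 in DESeq2. The means were 52.5 ± 1.61 CPM (SD, n = 2) and 69.8 ± 4.09 CPM (SD, n = 3). Its unadjusted p rose above 0.05 without either NB library, while the log2 fold change stayed between 0.36 and 0.44 without any single library.

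Tsp66E (3L, 8912499 to 8932065) was lower in LB-flies, at 1.57 and 1.30 CPM in NB-flies and 0.878, 0.772 and 0.885 CPM in LB-flies. These values rest on 39 and 34 counts in NB-flies and 23, 17 and 21 counts in LB-flies. The log2 fold change was −0.76 ± 0.27 (SE) with an unadjusted p of 0.0285 and an adjusted p of 0.625 in edgeR. DESeq2 gave an unadjusted p of 0.0775 and an adjusted p of 0.64. In edgeR the unadjusted p stayed under 0.05 without LB replicate 3 and rose above it without any other single library, while the log2 fold change stayed between −0.90 and −0.61.

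**Figure D3:**
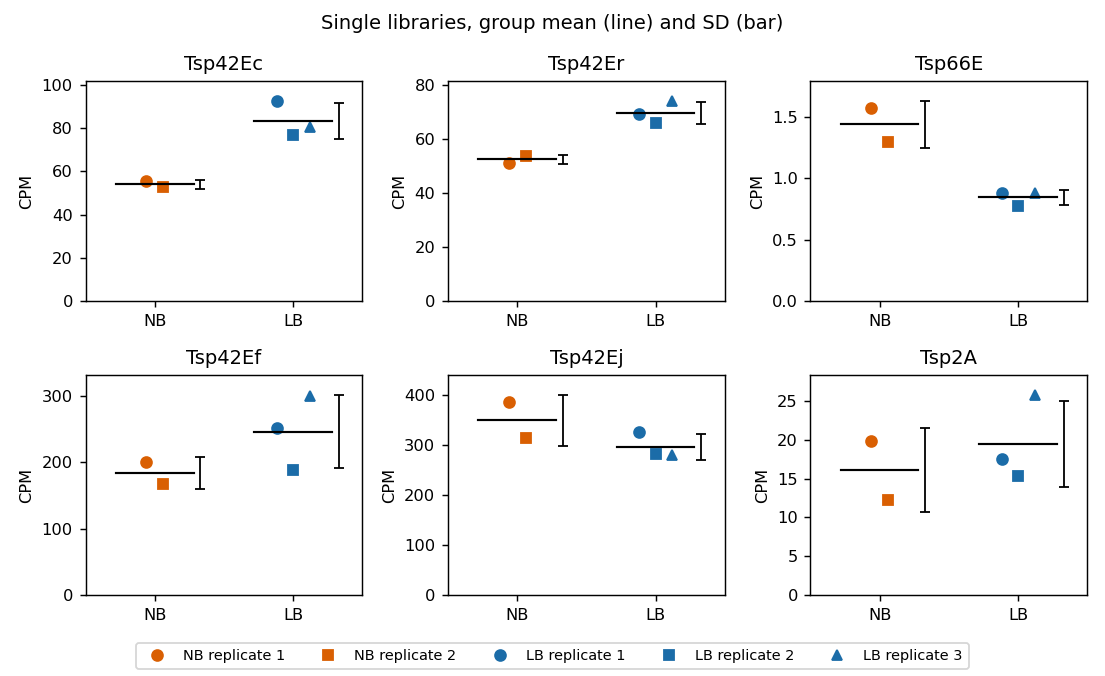
CPM in each library, from 0, for Tsp42Ec, Tsp42Er, Tsp66E, Tsp42Ef, Tsp42Ej and Tsp2A, with the group mean as a line and the SD as a bar beside it. The LB and NB points do not overlap for Tsp42Ec, Tsp42Er and Tsp66E, and they overlap for the other genes shown.

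The genes with the most counts had no unadjusted p under 0.05, and their groups overlapped. Tsp42Ej reached 386 and 314 CPM in NB-flies and 327, 282 and 281 CPM in LB-flies, which gave a log2 fold change of −0.24 ± 0.15 (SE) with LB replicate 1 above NB replicate 2. Of the 14 transcripts of the eye list, 9 were lower in LB-flies, with a median log2 fold change of −0.23. That of inaC (−0.49) and 1 of norpA (−0.79, at no more than 1.89 CPM in any library) had an unadjusted p under 0.05 in edgeR. At that limit 3.66% of all tested transcripts were lower. The other tested transcript of norpA was higher in LB-flies (1.32), at no more than 0.421 CPM. Of the others above 10 CPM in every library, Arr1, Arr2, Rh3, Rh4 and Rh6 were lower (−0.10 to −0.39) and trpl higher (0.20), with overlapping groups. The gene ninaE, which makes up most of the summed CPM of the list, had a log2 fold change of 0.07. The summed CPM was 14960 and 13340 for NB-flies against 16240, 13000 and 11620 for LB-flies, and the part of the eye in the level of Tsp42Ej was not tested. Tsp42Ef reached 201 and 167 CPM in NB-flies and 251, 188 and 299 CPM in LB-flies, which gave a log2 fold change of 0.42 ± 0.22 (SE) with an unadjusted p of 0.099 in edgeR. LB replicate 2 lay between the NB libraries for Tsp42Ef.

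Tsp42Eg had 224 and 200 CPM in NB-flies and 239, 194 and 254 CPM in LB-flies, which gave a log2 fold change of 0.11 ± 0.16 (SE). Tsp42El had 96.0 and 77.9 CPM in NB-flies and 95.8, 92.7 and 118 CPM in LB-flies, which gave a log2 fold change of 0.23 ± 0.17 (SE). Tsp42Eh had 77.9 and 68.4 CPM in NB-flies and 78.8, 68.0 and 72.4 CPM in LB-flies, and the 95% interval of its log2 fold change ran from −0.31 to 0.31. LB replicate 3 was the highest library for Tsp42Eg and Tsp42El, but not for Tsp42Eh, whose 5 libraries lay within 1.16-fold of each other, the smallest range of the tetraspanins with at least 100 counts. Tsp39D, outside the cluster, had 106 and 107 CPM in NB-flies and 126, 88.6 and 69.0 CPM in LB-flies, so that both the highest and the lowest library were LB-flies.

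Several cluster members of a lower level had lower values in LB-flies without passing the test. Tsp42Ea had the lowest log2 fold change of the tetraspanins, −0.91 ± 0.41 (SE), with 0.483 and 0.576 CPM in NB-flies and 0.229, 0.318 and 0.295 CPM in LB-flies. It rests on 47 counts in all, and its unadjusted p in edgeR was 0.0649. Tsp42Ei (2.22 and 2.76 CPM in NB-flies, 2.18, 1.59 and 1.14 CPM in LB-flies) and Tsp42En (2.14 and 1.88 CPM in NB-flies, 1.64, 1.18 and 1.56 CPM in LB-flies) were also below both NB libraries in every LB library, as were 13.1% of all tested transcripts. Tsp42Ed and Tsp42Ee, whose main transcripts had log2 fold changes of 0.07 ± 0.32 and 0.12 ± 0.19 (SE), overlapped between the groups. Tsp42Ed reached 6.08 and 9.09 CPM in NB-flies and 9.82, 5.27 and 8.77 CPM in LB-flies. Tsp42Ee reached 24.8 and 22.3 CPM in NB-flies and 22.6, 22.7 and 31.3 CPM in LB-flies.

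By level, 10 of the 15 transcripts with a mean of at least 10 CPM were higher in LB-flies, beside 3044 of all 6459 transcripts of that level. The median log2 fold change was 0.12, beside −0.02 for those 6459. Of the 16 transcripts with a mean under 10 CPM, 11 were lower, beside 5696 of all 10878 transcripts of that level. The median was −0.15, beside −0.02 for those 10878. This division was made after the values were seen.

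**Figure D4:**
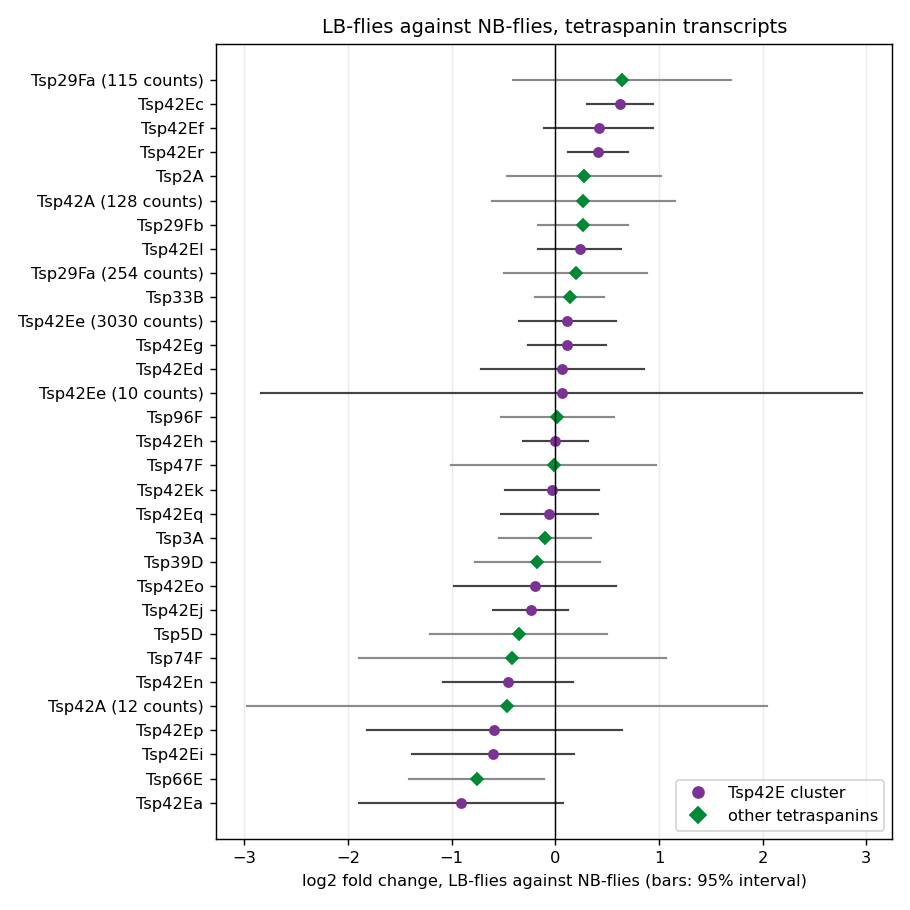
Log2 fold change (LB over NB, edgeR) with its 95% interval for the 31 tested tetraspanin transcripts, purple circles for the Tsp42E cluster and green diamonds for the others. The values run from −0.91 (Tsp42Ea) to 0.64 (the transcript of Tsp29Fa with 115 counts), and the interval excludes 0 for Tsp42Ec, Tsp42Er and Tsp66E.

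Outside the cluster, Tsp2A is the tetraspanin of the smooth septate junctions that seal the gut epithelium, together with Ssk, mesh and hoka. Tsp2A reached 19.9 and 12.3 CPM in NB-flies and 17.5, 15.3 and 25.8 CPM in LB-flies. The groups overlapped, with a log2 fold change of 0.28 and a 95% interval of −0.46 to 1.02. LB replicate 3 was the highest library and NB replicate 2 the lowest. LB replicate 3 was also the highest for its partners, with 23.2 CPM for Ssk (15.0 to 17.4 CPM in the other libraries), 19.0 CPM for mesh (7.79 to 14.5 CPM) and 93.5 CPM for hoka (54.5 to 71.3 CPM). In the list of the Malpighian tubule, a tissue with the same kind of junction, Uro was the highest in LB replicate 3, with 945 CPM beside 364 to 460 CPM in the other libraries, while Best2 was the lowest there, with 201 CPM beside 232 to 261 CPM. The summed CPM of the midgut enzymes was 12400 there and 10810 to 16650 in the others. Their part in the Tsp2A values was not tested. Of the 29 transcripts of 16 septate junction genes, 12 were higher and 17 lower in LB-flies, with a median log2 fold change of −0.13. At an unadjusted p under 0.05 in edgeR there were 3 higher transcripts and none lower, beside 3.91% and 3.66% of all tested transcripts. They were a pair of Fas3 (0.49 and 0.77 on the log2 scale) and 1 of scrib (1.07), the others of scrib overlapping between the groups. Of the 29, 0 passed the adjustment.

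Tsp3A is the only tetraspanin of the kuzbanian group that could be tested. It had 7.09 and 8.13 CPM in NB-flies and 6.61, 7.86 and 6.83 CPM in LB-flies, which gave a log2 fold change of −0.10 ± 0.18 (SE). The protease kuz itself had 0.886 and 1.46 CPM in NB-flies and 1.18, 0.999 and 1.22 CPM in LB-flies. Of 16 transcripts of 12 genes from the list of this protease and the Notch pathway, 5 were higher and 11 lower, with a median of −0.17. An unadjusted p under 0.05 in edgeR was found for 2, both lower, beside 3.66% lower of all tested transcripts. The gene of the Notch receptor had 5.60 and 5.99 CPM in NB-flies and 3.74, 4.36 and 3.12 CPM in LB-flies. Every LB library was below both NB libraries, as for 13.1% of all tested transcripts. The log2 fold change of the receptor gene in edgeR was −0.63, with an unadjusted p of 0.0248 and an adjusted p of 0.625. Kul, which encodes a relative of kuz, had a log2 fold change of −2.21, an unadjusted p of 0.0119 and an adjusted p of 0.625 in edgeR, at no more than 0.652 CPM in any library.

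Integrins are partners of tetraspanins in many animals. Of 20 transcripts of 11 integrin genes and their linkers, 14 were higher and 6 lower in LB-flies, with a median of 0.26. An unadjusted p under 0.05 in edgeR was found for 1 (a transcript of rhea, lower, with no library above 0.345 CPM). At that limit 3.66% of all tested transcripts were lower. The αPS subunit scb reached 33.6 CPM in LB replicate 3 with its main transcript and 7.27 to 13.6 CPM in the other libraries.

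Tsp29Fb and Tsp29Fa lie next to each other on 2L. Tsp29Fb was above both NB libraries in every LB library, with 11.0 and 9.52 CPM in NB-flies and 11.7, 11.3 and 14.0 CPM in LB-flies, but its log2 fold change of 0.27 ± 0.18 (SE) had an unadjusted p of 0.187 in edgeR. Both tested transcripts of Tsp29Fa were higher in LB-flies with overlapping groups, by 0.20 ± 0.28 (SE) and 0.64 ± 0.43 (SE) on the log2 scale. The first had 2.01 and 1.80 CPM in NB-flies and 1.87, 1.86 and 2.82 CPM in LB-flies, and the second 0.886 and 0.537 CPM against 0.687, 1.36 and 1.31 CPM.

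Tsp74F varied the most between libraries of the tetraspanins with at least 100 counts, by 3.67-fold. It had 1.45 and 3.84 CPM in NB-flies and 3.44, 1.04 and 1.43 CPM in LB-flies, so that each group held high and low libraries. Tsp96F had 18.0 and 15.5 CPM in NB-flies and 21.2, 16.5 and 13.4 CPM in LB-flies, which gave a log2 fold change of 0.02 ± 0.23 (SE). Tsp5D had 14.5 and 9.40 CPM in NB-flies and 6.57, 8.04 and 13.4 CPM in LB-flies, where LB replicate 3 lay between the NB libraries and the other LB libraries below them. Tsp47F had 6.28 and 7.25 CPM in NB-flies and 10.3, 5.95 and 3.79 CPM in LB-flies, so that the NB libraries lay between the highest and the lowest LB library. Tsp33B was even across the libraries, with 40.7 and 36.3 CPM in NB-flies and 46.8, 40.5 and 39.8 CPM in LB-flies. The main transcript of Tsp42A had 0.886 and 0.959 CPM in NB-flies and 1.53, 0.999 and 0.801 CPM in LB-flies, raised in LB replicate 1 only.

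Of the cluster members not yet described, Tsp42Eq had 44.4 and 37.9 CPM in NB-flies and 31.2, 42.3 and 45.3 CPM in LB-flies, with LB replicate 1 as the low library. Tsp42Ek had 4.97 to 6.07 CPM over all libraries and a log2 fold change of −0.03 ± 0.19 (SE). Tsp42Eo and Tsp42Ep, which overlap on opposite strands, were both lowest in LB replicate 2 and highest in LB replicate 1. Tsp42Eo had 8.34 and 5.72 CPM in NB-flies and 8.52, 4.82 and 5.02 CPM in LB-flies. Tsp42Ep had 0.927 and 0.882 CPM in NB-flies and 0.955, 0.273 and 0.548 CPM in LB-flies, from 6 to 25 counts in a library. Over the 27 transcripts with at least 100 counts, the highest library was 1.16 to 3.67 times the lowest, with a median of 1.76, and for 20 of them the range was under 2-fold.

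Neither the cluster nor the other tetraspanins leaned to one direction. In the cluster 8 transcripts were higher and 9 lower in LB-flies, with a median log2 fold change of −0.0017, and among the others 7 were higher and 7 lower, with a median of 0.0023. The summed level of the cluster was 1187 and 1020 CPM in NB-flies and 1237, 1052 and 1278 CPM in LB-flies. That of the others was 230.8 and 213.6 CPM in NB-flies and 254.9, 200.3 and 193.2 CPM in LB-flies. The ratio of these sums was 5.14 and 4.78 for NB-flies against 4.85, 5.25 and 6.61 for LB-flies, where only LB replicate 3 stood above both NB libraries by more than their own distance. The size of this ratio does not compare the expression of the cluster with that of the others. A single transcript is listed for 10 of the 17 cluster genes but for only 3 of the 17 others. Genes with several transcripts were counted as a fragment. Tsp26A, Tsp66A, Tsp86D and Tsp97E, all outside the cluster and without own bases, were not tested and are missing from the sums. Tsp42Ej, Tsp42Eg and Tsp42Ef together made up 63.2% to 68.4% of the cluster's summed CPM in every library.

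Along the chromosome the cluster spans 73.4 kb of arm 2R, from 6992676 to 7066113. Tsp42Ec and Tsp42Er, the members with the lowest p-values, start 13.8 and 71.7 kb from its first gene, and the members next to them, Tsp42Ed and Tsp42Eq, had log2 fold changes of 0.07 and −0.06. In the order of the chromosome the main transcripts from Tsp42Ec to Tsp42Eg were above 0, those from Tsp42Eh to Tsp42Ek and from Tsp42En to Tsp42Eq below it, and Tsp42El and Tsp42Er above it. Tsp42Ed, Tsp42Ee, Tsp42Eh, Tsp42Ek, Tsp42Eo and Tsp42Eq changed sign under another setting or without 1 library, so that their sides are not fixed. Of 6 other tested genes between them, 2 were higher and 4 lower. CG30160, the nearest of them to Tsp42Ec with a start at 12.5 kb, was higher at an unadjusted p of 0.00948 in edgeR, with 0.161 and 0.230 CPM in NB-flies and 0.496, 0.681 and 0.759 CPM in LB-flies. The tetraspanin late bloomer (lbm), which acts in synapse formation by motoneurons and lies within the cluster under another symbol, had 6.16 and 5.60 CPM in NB-flies and 7.64, 3.36 and 5.44 CPM in LB-flies. Of 22 transcripts of the 20 nearest tested genes on both sides, 8 were higher and 14 lower, with a median of −0.14. The neighbours CheB42a, CheB42b and CheB42c were all lower, with log2 fold changes between −0.78 and −0.58 and unadjusted p-values of 0.00879, 0.049 and 0.00725 in edgeR. On the same side Ufsp1 was higher, with a log2 fold change of 1.29 and an unadjusted p of 0.00975 in edgeR, at 0.322 and 0.307 CPM in NB-flies and 0.802, 0.727 and 0.801 CPM in LB-flies.

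**Figure D5:**
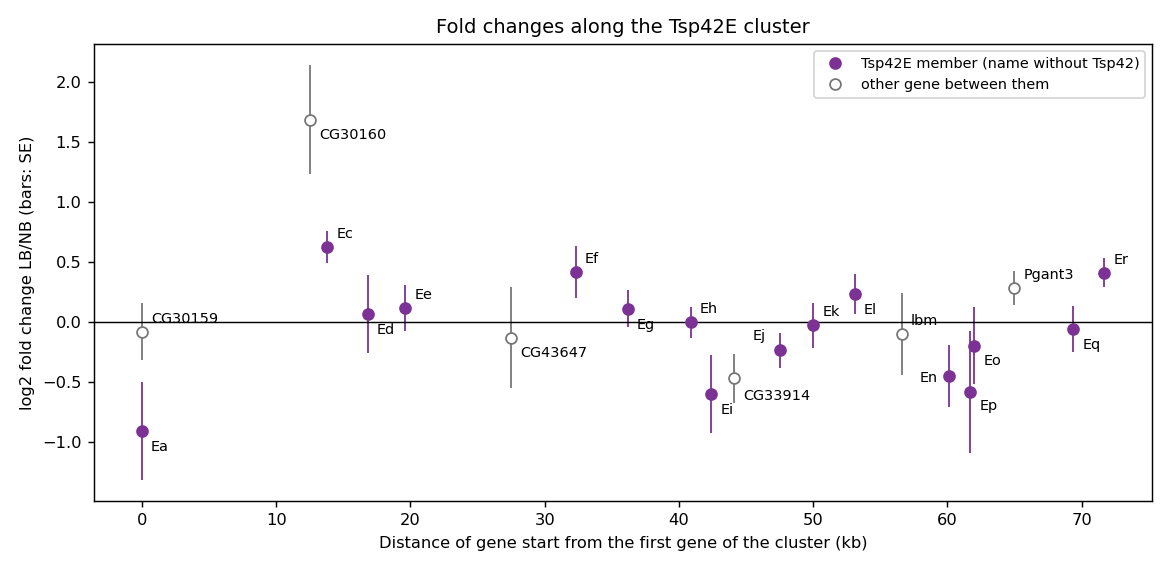
Log2 fold change of LB-flies against NB-flies (bars, SE) for the tested genes of the 42E region by the distance of their start from the first gene of the cluster in kb, filled for Tsp42E members and open for the 6 other genes, without the transcript of Tsp42Ee that has 10 counts. Tsp42Ec and Tsp42Er, at 13.8 and 71.7 kb, are the members with the lowest p-values, and among the members drawn only Tsp42Ea lies farther from 0 than Tsp42Ec.

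The libraries did not rank the family in one order. Of the 31 transcripts, 12 were highest in LB replicate 1, 9 in LB replicate 3, 2 in LB replicate 2 and 4 in each NB library, while the lowest library was NB replicate 2 or LB replicate 2 for 9 each, LB replicate 3 for 8, LB replicate 1 for 4 and NB replicate 1 for 1. Of all 17337 tested transcripts, 3950 were highest in LB replicate 1, 3830 in LB replicate 3 and 2652 in LB replicate 2. For NB replicates 1 and 2 the numbers were 3107 and 3798. The lowest library was LB replicate 3 for 4246 of them, LB replicate 1 for 3909 and LB replicate 2 for 2964. For NB replicates 1 and 2 these were 2672 and 3546. LB replicate 3 was the highest and NB replicate 2 the lowest for transcripts of Tsp2A, Tsp29Fa, Tsp29Fb, Tsp42Ee, Tsp42Ef and Tsp42El. LB replicate 1 was the highest and LB replicate 3 the lowest for those of Tsp39D, Tsp42A, Tsp42Ek, Tsp47F and Tsp96F.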

How the data were processed

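Polyadenylated RNA of whole males was sequenced by the authors as single-end reads of 100 bases from stranded libraries. Per the study's methods, adapters were removed by Cutadapt (2.10) under TrimGalore (0.6.1) before alignment with HiSat2 2.2.1 to the repeat-masked BDGP6 (dm6) genome and counting with HTSeq 0.13.5. What the authors deposited are raw read counts, 1 whole number for each of 34111 RefSeq transcripts. The counting mode and strand setting are not given in the sources used here. The summary lines of HTSeq were left out of library sizes and tests, and ambiguous reads made up 53.9% to 56.5% of the records.

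Symbols and positions came from the RefSeq gene table of Release 6 plus ISO1 MT, which matched 33766 transcripts with their version and 146 more without it, and left 199 unmatched. Own bases of transcripts and exon overlaps were taken from the Ensembl annotation of the same build. Samples were grouped by the treatment in their labels. The 17337 transcripts whose counts over the 5 libraries sum to 10 or more entered a quasi-likelihood fit in edgeR 4.0.16 (R 4.3.3) after TMM normalization, with Benjamini-Hochberg adjustment and a limit of 0.05. CPM are scaled to the TMM-normalized library size, and 3 counts are 0.115 to 0.136 CPM. DESeq2 1.42.0 with default filtering, other scalings and filters, transcripts summed by gene, a replicate block by each numbering, and each library left out were the alternatives. The leave-one-out fits of DESeq2 were chosen after seeing the data.

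With 2 and 3 libraries an exact permutation test cannot fall under 0.1 and was not used. The libraries were prepared separately from vials of 1 experiment, and p-values measure the spread between these vials. The members and gene lists were chosen with earlier results of these data known, so that lists are described by counts and medians. Members are named if they had an unadjusted p under 0.05 in edgeR or an adjusted p under 0.05 in DESeq2, were among the 6 with the most counts, have a role in the literature, or had the largest or smallest fold change, and other lists by up to 4 genes with the smallest p-values. Genes of the region and of the junction, protease and tissue lists that fall outside this rule were named after their values were seen.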

Additional observations from a re-analysis of the deposited data

How the results depend on the processing

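The count of tetraspanins with an adjusted p under 0.05 was 0 in edgeR under every setting and without any single LB library. It was 1 in DESeq2 (Tsp42Ec, log2 fold change 0.63). Of all tested transcripts edgeR called 0 in the reported fit, 5 with the replicate block by repeat number and 1 without LB replicate 3. At the other settings edgeR called 0, so that a count of 0 is not particular to the tetraspanins. The count with an unadjusted p under 0.05 in edgeR was 3 in the reported fit and 1 with either replicate block. Of all 17337 tested transcripts, 1313 were under this limit in the reported fit, 805 with the block by repeat number and 422 by library name. Without LB replicates 1, 2 and 3 the count for tetraspanins was 4, 3 and 4. All transcripts under the limit were then 2007 of 16993, 644 of 17039 and 1132 of 16992. Tsp39D and Tsp42Ei joined without LB replicate 1, Tsp42Ef without LB replicate 2 and Tsp5D without LB replicate 3. The share of all transcripts at this limit thus also changed with the setting. The median of the cluster minus that of the others was −0.0040, −0.11 with the replicate block by repeat number, 0.09 with the block by library name, −0.08 without the filter and −0.10 to 0.02 without single libraries. The log2 fold change of Tsp42Ec was 0.64 and 0.68 with the blocks and 0.55 to 0.68 without single libraries, with adjusted p-values of 0.42 to 0.987 over the alternatives of edgeR. The repeat numbers did not pair the libraries, since the deviations of same-numbered libraries correlated at −0.177 and 0.0156 (−0.177 and −0.2 by library name).

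Of 386 values for single transcripts 34 changed sign, in 15 of 31 transcripts, and none of these had an adjusted p under 0.05 under either sign. With the replicate block by repeat number the log2 fold change became −0.031 for Tsp29Fa (254 counts), 0.078 for Tsp42A (12 counts), −0.043 for Tsp42Ed, −0.054 for Tsp42Ee, 0.0042 for Tsp42Eh, 0.033 for Tsp42Ek and 0.22 for Tsp47F. For Tsp42Eh it was 0.0017 in DESeq2, 0.0015 with the size factors of DESeq2, 0.013 with library size alone and 0.049 with the block by library name, and for Tsp47F 0.0036 with library size alone. Without single libraries the log2 fold changes ran from −0.040 to 0.30 for Tsp29Fa, −0.034 to 0.68 for Tsp2A, −0.43 to 0.0001 for Tsp39D, −0.032 to 0.45 and −0.39 to 0.083 for Tsp42A, −0.18 to 0.38 for Tsp42Ed, −0.065 to 0.21 for Tsp42Ee, −0.10 to 0.11 for Tsp42Eh, −0.10 to 0.028 for Tsp42Ek, −0.51 to 0.11 for Tsp42Eo, −0.17 to 0.10 for Tsp42Eq, −0.47 to 0.26 for Tsp47F, −0.72 to 0.0029 for Tsp5D, −1.09 to 0.43 for Tsp74F and −0.16 to 0.16 for Tsp96F. The cause was not tested. Low counts limit Tsp42Ea, Tsp42Ep, Tsp66E and the minor transcripts of Tsp42A and Tsp42Ee.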

Other observations

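Ratios between tetraspanins within a library do not depend on the scaling of the library. Over the 66 pairs of the 12 tested genes with a single transcript, the 3 LB ratios lay on one side of both NB ratios for 27 pairs (40.9%). The same held for 31.7% of all pairs among the 5079 tested genes with a single transcript and at least 804 counts, the count of the lowest of the 12. Pairs that share a gene are not independent. Tsp42Ec took part in 10 of these 27 pairs, out of 11 it belongs to, and Tsp42Ej and Tsp42Er in 7 each. The ratio of Tsp42Ej to Tsp42Ec in CPM was 6.96 and 5.96 for NB-flies against 3.54, 3.67 and 3.49 for LB-flies. The ratio of Tsp42Ef to Tsp42Ej was 0.521 and 0.533 for NB-flies against 0.767, 0.668 and 1.06 for LB-flies, so that Tsp42Ef passed Tsp42Ej in CPM in LB replicate 3. These pairs were chosen after their values were seen, and the ratios were not tested.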
